A study of Mus musculus with 8 samples.

Results

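Circular RNAs (circRNAs) are closed loops made when the splicing machinery joins the end of an exon back to the start of the same or an earlier exon, and each is named after the host gene it comes from. The circRNAs described here are all those listed for 6 hosts whose proteins run or maintain mitochondria: Pdss2, Ccdc109a, Supv3l1, Ttc19, Rhot1 and Lactb2. They were chosen by host gene symbol, and 7 of the 6315 listed circRNAs met that rule, 2 from Pdss2 and 1 from each other host. The libraries were made from total RNA of mouse kidney, of the strain written C57BL/6L in the labels, at 8 to 10 weeks of age. There were 3 libraries of unilateral ureteral obstruction (UUO), in which urine outflow from 1 kidney is blocked, 2 of a group called acute-chronic (AC), and 3 controls. The design text has kidneys taken at day 5 after ischaemia/reperfusion (I/R) or UUO and calls the controls sham-operated, while the titles call them WT. AC is not explained beyond its name, and no genotype other than WT is given. Whether every library stands for its own animal is left unsaid, so a p-value here reflects library-to-library spread only, part of which may be technical.

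The kidney tubule depends on mitochondria for the ATP that drives reabsorption, and it loses oxidative capacity in many injury models. Mitochondria keep a small genome of their own, whose transcripts are trimmed and destroyed inside the organelle, and they import the rest of their proteins. Electrons reach respiratory complex III on coenzyme Q, calcium enters through a uniporter in the inner membrane, and motor adaptors on the outer membrane move the organelle along microtubules. A count of a circRNA is not a level of its host's messenger RNA or protein: the linear transcripts were not analysed here.

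Coding stretches are shown for 3 of the hosts because they hold a short signature of the protein's fold or of nucleotide binding. Such a signature alone does not mark a nuclease, a GTPase or a helicase. Rhot1 and Supv3l1 were searched with the same P-loop pattern. The stretches were read from the source transcript that the counts name for each circRNA, or its GENCODE match. GENCODE M21 on build GRCm38 was used, whereas the submitters' notes name mm9. Capitals mark the signature codons, found by a search in the reading frame of the metallo-beta-lactamase zinc-binding signature and of the P-loop that binds nucleotide phosphates. The zinc-binding signature occurred in 0.156% and the P-loop in 3.83% of 53774 coding transcripts. The Lactb2 stretch is coding bases 205 to 270, in exon 2 of 7, at chr1:13650737-13650802 on the minus strand. The Supv3l1 stretch is coding bases 595 to 666, in exon 5 of 15, at chr10:62443470-62443541 on the minus strand. The Rhot1 stretch is coding bases 46 to 117 on chromosome 11, plus strand, across the junction of exons 1 and 2, and is the first of 2 matches in that transcript. The counts name no exons, so whether a circle holds any of these bases is not known.
Lactb2: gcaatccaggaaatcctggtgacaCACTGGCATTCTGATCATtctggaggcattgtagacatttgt
Supv3l1: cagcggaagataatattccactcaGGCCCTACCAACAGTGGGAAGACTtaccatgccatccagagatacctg
Rhot1: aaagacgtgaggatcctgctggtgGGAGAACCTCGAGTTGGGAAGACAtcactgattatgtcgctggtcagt

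Library totals ran from 40865 to 65145 counts, so 1 count was worth between 18.9 and 29.2 counts-per-million units (CPM, over the counts left by the filter on low counts and scaled by TMM factors). All 7 circRNAs passed the filter on low counts, which left 1471 circRNAs, and their own totals over the 8 libraries ran from 52 to 218 counts. The 7 together held between 0.182% and 0.247% of all counts in UUO, 0.162% and 0.234% in AC, and between 0.277% and 0.363% in control. Without Lactb2 these shares overlapped, at 0.149% to 0.220% in UUO, 0.144% and 0.212% in AC, and 0.205% to 0.276% in control. As a look at the kidney label, 1 of 13 proximal tubule markers (Lrp2), 3 of 14 distal nephron markers (Atp6v0a4, Klhl3, Wnk1), 1 of 7 podocyte markers (Magi2), 2 of 7 endothelial markers (Flt1, Tek), 0 of 9 fibroblast and 0 of 10 immune markers had a listed circRNA. These are too few to tell 1 tissue from another. Levels are not compared between hosts, since the lengths of the circles are not known.

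Lactb2 was the 1 member that passed the threshold, and it was lower in both injury groups. In human cells its protein is an endoribonuclease of the mitochondrial matrix with a metallo-beta-lactamase fold. The Lactb2 circRNA (mmu_circ_0008185) had 15, 14 and 19 counts in UUO, 11 and 7 in AC, and 32, 59 and 50 in control, in the order of the replicate numbers. On the CPM scale these were 381, 327 and 399 in UUO, 259 and 204 in AC, and 851, 1114 and 1034 in control. Every injured library lay below every control library.

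In UUO the Lactb2 circRNA averaged 369 ± 37.4 CPM (SD, n = 3), against 999 ± 135 CPM (SD, n = 3) in control libraries. It was 2.70-fold lower, with a log2 fold change of -1.43 (SE 0.36, 95% interval -2.19 to -0.68) and an adjusted p of 0.0311 in edgeR's quasi-likelihood test with Benjamini-Hochberg adjustment over the 1471 circRNAs. In AC it averaged 232 ± 38.9 CPM (SD, n = 2), against the same controls. There it was 4.26-fold lower, with a log2 fold change of -2.09 (SE 0.44, 95% interval -3.02 to -1.16) and an edgeR adjusted p of 0.0182. Across all circRNAs tested, 1.50% passed as lower in UUO and 1.43% in AC. The groups did not overlap, lower in the injured one, for 11.0% in UUO and 15.4% in AC.

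All 3 UUO libraries lay above both AC libraries for Lactb2, at 327 to 399 CPM in UUO and 204 to 259 CPM in AC. Among all tested circRNAs, 13.2% lay wholly higher and 11.1% wholly lower in UUO than in AC. This difference did not pass (log2 fold change 0.66, SE 0.46, 95% interval -0.31 to 1.62, edgeR adjusted p = 0.913). UUO and AC were both set against the same controls, so their Lactb2 values are not independent of each other.

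The size of the Lactb2 decrease held when any 1 library was left out, but the calls did not. The UUO decrease then lay between 2.54-fold and 2.89-fold. It lost its call without UUO replicate 1, 2 or 3 (adjusted p = 0.0927, 0.120 and 0.0968) and without control replicate 2 or 3 (adjusted p = 0.0857 and 0.0965). The AC decrease lay between 3.90-fold and 5.01-fold, and lost its call without AC replicate 1 or 2 (adjusted p = 0.0988 and 0.131) and without control replicate 3 (adjusted p = 0.0558). With each library left out in turn, the call held in 3 of 8 settings in UUO and 5 of 8 in AC. The UUO call was also lost with no filter on low counts (adjusted p = 0.0993), and the AC call in limma-voom (adjusted p = 0.0533) and when only AC and control were fitted (adjusted p = 0.0575).

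**Figure D1:**
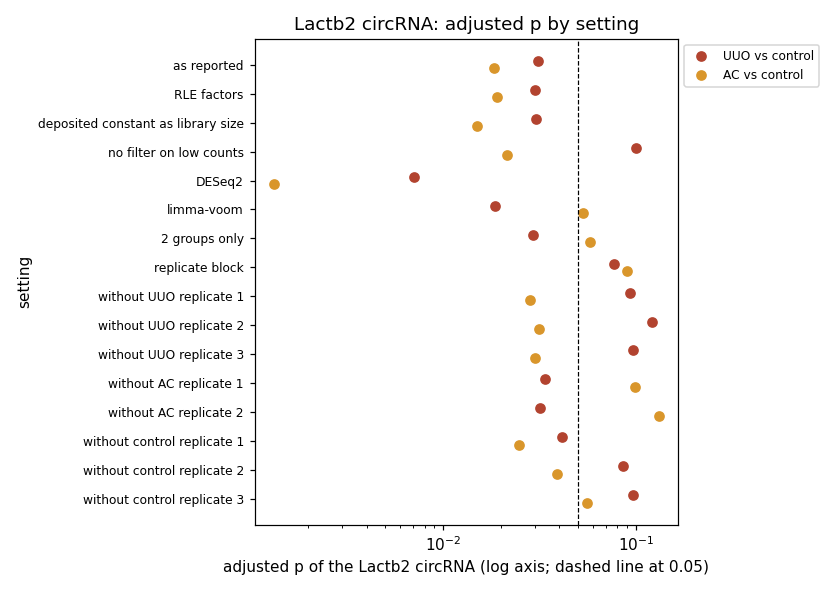
Adjusted p of the Lactb2 circRNA (horizontal log axis, dashed line at 0.05) in UUO and in AC against control, under each processing setting (down the page). Values run from 0.00709 to 0.120 in UUO and from 0.00132 to 0.131 in AC.

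Among the cell type markers, the circRNAs of Klhl3, whose protein marks WNK kinases for breakdown, were low in the same libraries as Lactb2. The circRNAs of the 3 listed markers of that segment summed to 952 to 1535 CPM, scaled here by the library total, in UUO, 1262 and 1640 in AC, and 2380 to 3161 in control. Klhl3 carried this difference, at 299 to 569 in UUO, 305 and 587 in AC, and 1668 to 2195 in control. The Klhl3 values are given without a test. Taken singly, 11.0% of all tested circRNAs lay wholly lower in UUO than in control, and 15.4% in AC. Atp6v0a4, at 431 to 1194 in UUO, 856 and 916 in AC, and 712 to 1342 in control, and Wnk1, at 34.6 to 58.8 in UUO, 40.7 and 196 in AC, and 0 to 68.2 in control, overlapped. Lrp2, which encodes megalin of the proximal tubule, gave a circRNA that stood at 225 to 576 in UUO, 514 and 529 in AC, and 205 to 1412 in control on that scale. Magi2, the 1 of 7 podocyte markers with a listed circRNA, was at 64.0 to 333 in UUO, 224 and 318 in AC, and 139 to 364 in control. Flt1 and Tek, 2 of 7 endothelial markers, summed to 21.3 to 173 in UUO, 0 and 220 in AC, and 76.8 to 114 in control. The part of cell type shares in the Lactb2 result was not tested, and in whole kidney fewer cells of a type and fewer circles per cell cannot be told apart.

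**Figure D2:**
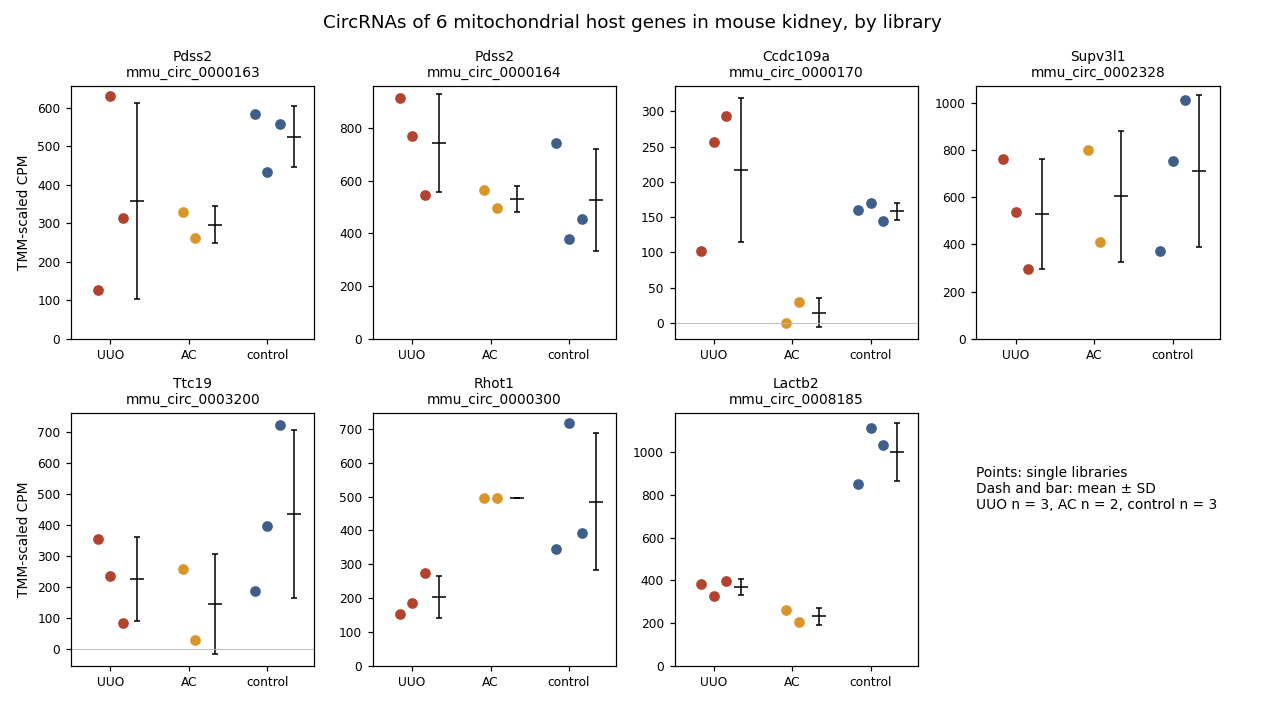
TMM-scaled CPM of each of the 7 circRNAs (vertical axes, 1 scale per panel) in single libraries, grouped as UUO, AC and control, with the mean ± SD of each group as a dash and bar. The 5 injured libraries lie between 204 and 399 CPM for Lactb2, below all 3 controls at 851 to 1114 CPM. The groups overlap throughout for Supv3l1, Ttc19 and mmu_circ_0000164.

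Supv3l1 encodes an ATP-dependent RNA helicase that in human mitochondria works with the nuclease PNPT1 to degrade RNA, and its circRNA did not pass in either comparison. The Supv3l1 circRNA (mmu_circ_0002328) had 30, 23 and 14 counts in UUO, 34 and 14 in AC, and 14, 40 and 49 in control. Libraries of 1 group differed by more than the groups did, with 531 ± 234 CPM (SD, n = 3) in UUO, 605 ± 278 CPM (SD, n = 2) in AC and 713 ± 322 CPM (SD, n = 3) in control. Its log2 fold change was -0.45 in UUO (95% interval -1.40 to 0.50, edgeR adjusted p = 0.696) and -0.24 in AC (95% interval -1.30 to 0.83, edgeR adjusted p = 0.888). A 2-fold decrease lies inside both intervals and a 2-fold increase outside both.

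Rhot1 encodes Miro1, a calcium-binding GTPase of the outer mitochondrial membrane that ties the organelle to kinesin through TRAK adaptors. Its circRNA was low in UUO, though not past the threshold. The Rhot1 circRNA (mmu_circ_0000300) had 6, 8 and 13 counts in UUO, 21 and 17 in AC, and 13, 38 and 19 in control. In CPM these were 152, 187 and 273 in UUO, 495 and 496 in AC, and 346, 717 and 393 in control. The 3 UUO libraries thus lay below the other 5. Among all tested circRNAs, 11.0% lay wholly lower in UUO than in control, and 11.1% wholly lower in UUO than in AC.

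In UUO the Rhot1 circRNA averaged 204 ± 62.2 CPM (SD, n = 3), against 485 ± 202 CPM (SD, n = 3) in control. The log2 fold change was -1.24 (SE 0.49, 95% interval -2.27 to -0.21), with an unadjusted p of 0.0209 and an edgeR adjusted p of 0.185. In AC the mean was 495 ± 0.818 CPM (SD, n = 2). Against control its log2 fold change was 0.018 (SE 0.51, edgeR adjusted p = 0.990). That value is within 0.1 of 0 and turned negative under 7 of 15 alternative settings. Set directly against AC, UUO had a log2 fold change of -1.26 (SE 0.54, 95% interval -2.39 to -0.12, unadjusted p = 0.0318, edgeR adjusted p = 0.816).

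Ccdc109a is the older symbol of Mcu, the pore-forming subunit of the mitochondrial calcium uniporter. Its circRNA was the least counted member, with 1 count in the 2 AC libraries together. The Ccdc109a circRNA (mmu_circ_0000170) had 4, 11 and 14 counts in UUO, 0 and 1 in AC, and 6, 9 and 7 in control. In CPM these were 102, 257 and 294 in UUO, 0 and 29.2 in AC, and 160, 170 and 145 in control. In AC replicate 1 a count of 0 allows up to 70.7 CPM, the worth of 3 counts there, which is below each control value. The control values rest on 6, 9 and 7 counts and carry counting error of their own, which this limit leaves out.

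Summed over groups, the Ccdc109a ratio of control to AC was 12.1, with an exact binomial 95% interval from 1.96 to 501. This interval covers counting error only. Against the spread between libraries, AC did not pass against control (log2 fold change -3.30, SE 1.55, unadjusted p = 0.0486, edgeR adjusted p = 0.353). That fitted value was -2.37 without AC replicate 1, and -5.85 without AC replicate 2, where the remaining AC library was at 0 counts and the value depends on the prior count. The Ccdc109a circRNA passed the filter on low counts through UUO alone, where 2 libraries reached the filter's level of 199.7 CPM of the library total, against 0 in AC and 0 in control. A high value in UUO was therefore built into its being tested, and its difference between UUO and AC is given by the counts above, with no test. The same selection bears on UUO against control. There the fitted log2 fold change was 0.46, and the UUO libraries lay on both sides of the controls.

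Pdss2 encodes a subunit of the prenyl diphosphate synthase that builds the side chain of coenzyme Q, and mice with the kd mutation in it develop kidney disease. It gave 2 circRNAs from the same source transcript. The first, mmu_circ_0000163, had 5, 27 and 15 counts in UUO, 14 and 9 in AC, and 22, 23 and 27 in control. Its CPM were 127, 631 and 315 in UUO, 330 and 263 in AC, and 585, 434 and 558 in control. Both AC libraries lay below all controls, as was so for 15.4% of all tested circRNAs, while the UUO libraries spanned the controls.

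The mmu_circ_0000163 circRNA did not pass. Its log2 fold change was -0.54 in UUO (SE 0.51, 95% interval -1.61 to 0.53, edgeR adjusted p = 0.673) and -0.81 in AC (SE 0.59, 95% interval -2.06 to 0.44, edgeR adjusted p = 0.623). The other Pdss2 circRNA, mmu_circ_0000164, had 36, 33 and 26 counts in UUO, 24 and 17 in AC, and 28, 20 and 22 in control. It averaged 743 ± 185 CPM (SD, n = 3) in UUO, 531 ± 49.2 CPM (SD, n = 2) in AC and 526 ± 193 CPM (SD, n = 3) in control, with overlapping groups. Its log2 fold change was 0.51 in UUO (SE 0.38, 95% interval -0.30 to 1.32, edgeR adjusted p = 0.573). In AC it was 0.035 (95% interval -0.89 to 0.96, edgeR adjusted p = 0.978), which turned negative under 6 of 15 alternative settings.

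The balance of the Pdss2 pair was then set out by library. The share of Pdss2 counts in mmu_circ_0000164 was 87.8%, 55.0% and 63.4% in UUO, 63.2% and 65.4% in AC, and 56.0%, 46.5% and 44.9% in control. The Wilson 95% interval of UUO replicate 1, at 74.5% to 94.7% from 41 counts, lay above those of the 3 controls, and the intervals of the other 4 injured libraries overlapped with theirs. A test of whether the circRNAs of 1 host change by different amounts (edgeR diffSpliceDGE, over 268 hosts with 2 or more tested circRNAs) did not call Pdss2 in UUO (adjusted p = 0.889), in AC (adjusted p = 0.957) or between UUO and AC (adjusted p = 0.970). It called 0% of hosts in UUO, 0.373% in AC and 0.373% between UUO and AC. With both circRNAs summed, Pdss2 had a log2 fold change of 0.020 in UUO (95% interval -0.65 to 0.69, edgeR adjusted p = 0.991) and of -0.36 in AC (95% interval -1.14 to 0.41, edgeR adjusted p = 0.705). Summed per host, 1 of the 6 hosts passed in UUO and in AC (Lactb2, with its 1 circRNA), where 6.50% and 3.46% of 1185 hosts passed. Between UUO and AC 0 of 6 hosts passed in edgeR, DESeq2 or limma-voom, as did 0% of all in edgeR.

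**Figure D3:**
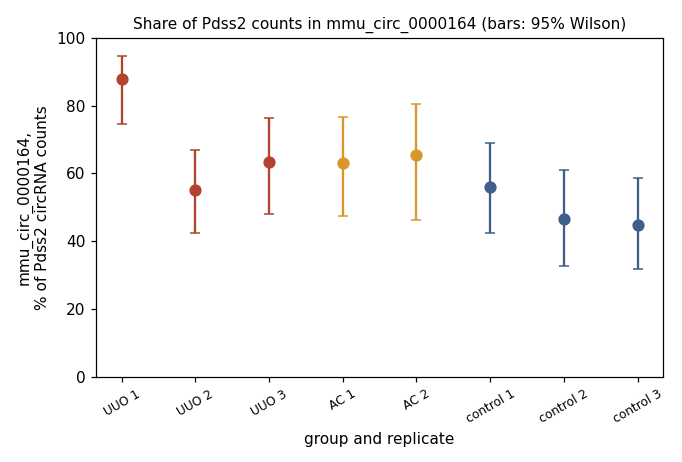
Share of all Pdss2 circRNA counts that fell on mmu_circ_0000164 (vertical axis, percent) in each library, with 95% Wilson intervals for counting error. The injured libraries lie between 55.0% and 87.8% and the controls between 44.9% and 56.0%, with wide intervals.

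Ttc19 encodes a protein of the inner membrane needed for respiratory complex III, where in mice it helps to clear fragments of the Rieske subunit. The Ttc19 circRNA (mmu_circ_0003200) had 14, 10 and 4 counts in UUO, 11 and 1 in AC, and 7, 21 and 35 in control. The controls alone ran from 186 to 724 CPM, and the groups overlapped, with 224 ± 136 CPM (SD, n = 3) in UUO, 144 ± 163 CPM (SD, n = 2) in AC and 435 ± 271 CPM (SD, n = 3) in control. The log2 fold change was -0.98 in UUO (SE 0.71, 95% interval -2.47 to 0.52, edgeR adjusted p = 0.552) and -1.54 in AC (SE 0.85, 95% interval -3.33 to 0.26, edgeR adjusted p = 0.453). The AC value rested on a wide spread between its 2 libraries, at -3.83 without AC replicate 1 and -0.78 without AC replicate 2.

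Counted together, 1 of the 7 circRNAs passed in UUO against control, where 4.35% of all tested circRNAs passed, and 1 of 7 in AC against control, where 3.33% passed. Negative log2 fold changes were found for 5 of 7 in UUO (median -0.54) and 5 of 7 in AC (median -0.81). Over all tested circRNAs, 49.4% were negative in UUO (median 0.016) and 50.6% in AC (median -0.015). Scaled instead by the constant that links the 2 deposited tables, the median over all circRNAs was -0.26 in UUO and -0.34 in AC. That of the members was then -0.78 in UUO, with 5 of 7 negative, and -1.11 in AC, with 7 of 7 negative. An unadjusted p under 0.05 was found for 2 of 7 in each, Lactb2 and Rhot1 in UUO and Lactb2 and Ccdc109a in AC, against 15.5% of all circRNAs in UUO and 14.1% in AC. The members were chosen with earlier results of these data known, so these counts describe them and carry no test.

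UUO was also compared directly with AC, which tests whether their effects differ. Of the 7, 2 had a negative log2 fold change, against 46.9% of all. Of the 7, 0 passed in edgeR, as did 0% of the 1471 tested circRNAs. An unadjusted p under 0.05 was found for Rhot1, and for 5.57% of all. Ccdc109a entered the test through UUO, so its unadjusted p is not counted here. That selection also favoured its positive sign, so its place among the 7 in the counts above carries no weight. Among all tested circRNAs, DESeq2 called 2 and limma-voom 0 in this comparison, and neither of those 2 tools called a member.

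**Figure D4:**
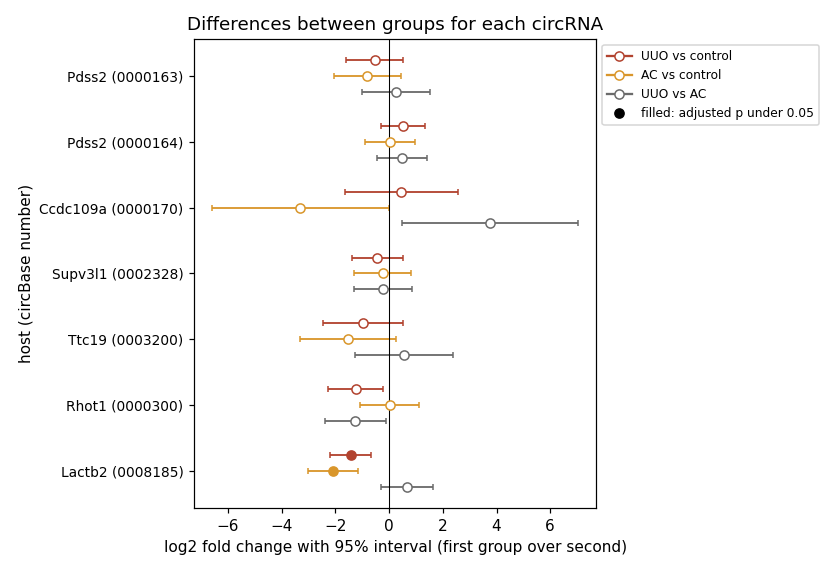
Log2 fold changes (horizontal axis) with 95% intervals for the 7 circRNAs, in UUO against control, AC against control and UUO against AC. Ccdc109a passed the filter on low counts through UUO alone. Its drawn interval for UUO against AC is therefore no test, and the same selection bears on UUO against control. Filled points passed at an adjusted p under 0.05: Lactb2 in UUO (-1.43) and in AC (-2.09).

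The members did not move as 1 block from library to library. Over the 8 libraries, which share depth and group differences, the log2 CPM values of the 21 pairs of members had a median Pearson r of 0.16. The highest r was 0.84, between Supv3l1 and Ttc19, and the lowest -0.86, between Rhot1 and mmu_circ_0000164 of Pdss2. Among all tested circRNAs of other hosts, the pattern most like that of Lactb2 over the 8 libraries was Cryl1, an L-gulonate dehydrogenase (mmu_circ_0000543, r = 0.99). It had 2335, 1728 and 2142 CPM in UUO, 1037 and 1167 CPM in AC, and 5743, 6587 and 7423 CPM in control. Next came Cpeb3, a regulator of translation (mmu_circ_0007737, r = 0.96), and Bckdhb, of branched-chain amino acid breakdown (mmu_circ_0001822, r = 0.96). Of the tested circRNAs of other hosts, 4.42% had an r over 0.8 with Lactb2, so its pattern was shared by many. This share was 0.817% to 1.22% for the circRNAs in the next paragraph.

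For Rhot1 the nearest patterns were those of Ube4b (r = 0.95), Frmd4b (r = 0.95) and Spast (r = 0.93), and for Ccdc109a those of Cables1 (r = 0.94), Zfpm2 (r = 0.91) and Atrnl1 (r = 0.90). The nearest to Supv3l1 were Hiat1 (r = 0.87), Hmgxb3 (r = 0.87) and Ttbk2 (r = 0.84). Those nearest to Ttc19 were Zbtb48 (r = 0.89), Zdhhc21 (r = 0.89) and Asxl2 (r = 0.88). For mmu_circ_0000164 of Pdss2 they were Pibf1 (r = 0.88), Dcaf5 (r = 0.85) and Zcchc17 (r = 0.85). These are the 3 closest for each circRNA, picked from the 1471 tested over 8 shared libraries, and are given as a description.

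Other mitochondrial genes, on 5 lists for the areas of the 6 hosts and 2 for other areas, gave few testable circRNAs. Besides the members, 8 circRNAs of 7 hosts could be tested, and 0 passed in UUO, in AC or between them in edgeR, with an unadjusted p under 0.05 for 0, 1 and 0. DESeq2 and limma-voom also called 0 of the 8. In UUO 6 of the 8 had a negative log2 fold change (median -0.33), and in AC 5 of 8 (median -0.30). Coenzyme Q synthesis, calcium uptake, complex III and the other respiratory complexes had 3, 3, 1 and 12 listed circRNAs besides the members, of which 0 could be tested.

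In mitochondrial RNA metabolism 1 of 12 could be tested, from Trmu, a modifier of mitochondrial transfer RNA, with log2 fold changes of -0.21 in UUO and -0.55 in AC. In transport, fusion and fission 4 of 20 could be tested. The 1 with an unadjusted p under 0.05 was from Usp30, a deubiquitinase of the outer membrane, with a log2 fold change of -0.86 in AC (unadjusted p = 0.0376, edgeR adjusted p = 0.313) and -0.40 in UUO. Immt, a scaffold of the cristae junctions, had -0.97 in UUO and 0.063 in AC. The 2 circRNAs of Oma1, a protease that cuts OPA1, had 1.03 and 1.15 in UUO and 0.0031 and 0.59 in AC. None of these values passed. In translation and import 3 of 14 could be tested, from Gfm2, Fars2 and Mrps31, with negative values from -0.26 to -1.13 in UUO and from -0.28 to -0.38 in AC.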

How the data were processed

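The authors deposited 2 tables of 6315 circRNAs in 8 libraries. The first holds whole-number counts, deposited without normalization. The second holds a signal: its values equal the authors' counts divided by a library constant of 8718 to 11941 (multiplied back, 100% were whole within 0.01), and the meaning of this constant is not given. The submitters' processing notes name HISAT2, StringTie and mm9 without saying what each did. The circRNA caller, its read minimum and the treatment of reads shared by circles are not stated in any source used.

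Counts were tested with edgeR 4.0.16 (quasi-likelihood, TMM factors, default filter: about 10 counts in enough libraries and 15 in all) in R 4.3.3. All 8 libraries and 3 groups entered 1 fit, with Benjamini-Hochberg adjustment over 1471 circRNAs (threshold 0.05). The filter kept 82.5% to 84.8% of the counts of each library. Counts summed per host were fitted likewise over 1185 hosts. The SE was taken from the log2 fold change and the F statistic. Likeness used log2 CPM with a prior count of 2. Wilson and exact binomial intervals and floors (3 counts) cover counting error only. Intervals of log2 fold changes were built from the SE and the degrees of freedom of the fit, so they include spread between libraries. Replicates of a group differed by more than counting noise (chi-square per degree of freedom 3.00 to 4.72). Alternatives were RLE factors, the deposited constant as library size, no filter, DESeq2 1.42.0, limma 3.58.1 (voom), 2 groups only, a replicate block, and leaving out each library.

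All 7 members were named, with the 3 nearest patterns of each host's most abundant circRNA. From 7 lists of mitochondrial genes, circRNAs past the threshold were to be named; since 0 passed, those named were chosen after their values were seen. Members and lists were chosen with earlier results of these data known. Gene symbols of 10 rows that had become numbers were restored by source transcript, and 32 rows had no host.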

Additional observations from a re-analysis of the deposited data

How the results depend on the processing

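Of 397 values for single circRNAs and for the summed circRNAs of Pdss2 and Lactb2 under alternative settings, 353 kept their direction and their side of the threshold, 22 lost a call and 22 changed sign. All 22 lost calls were of Lactb2, which stayed lower under all 15 alternatives in both comparisons with control. Same-numbered libraries did not deviate together (7 correlations from -0.11 to 0.042, and 0 of 8 libraries closest to their own number), so the numbers do not pair them. With the replicate block the adjusted p of the Lactb2 circRNA was 0.0771 in UUO and 0.0894 in AC, 0 members passed in either comparison and 0 of the 6 hosts in AC, and 12 (UUO) and 5 (AC) of all circRNAs passed. Of the 7 members, 1 passed in UUO, against 0 with no filter, and 1 in AC, against 0 in limma-voom and 0 with 2 groups only; of the 6 hosts 0 passed in AC in limma-voom. Leaving out 1 library gave 0 to 1 member and 0 to 1 host in each comparison with control. Of all circRNAs 64 passed in UUO, against 37 with the deposited constant, 103 in DESeq2, and 10 to 75 with 1 library left out. In AC 49 passed, against 29 with the constant, 14 with 2 groups only, and 11 to 38 with 1 library left out. Between UUO and AC 0 passed, against 4 with no filter, 2 in DESeq2, 1 with 2 groups only, and 0 to 1 with 1 library left out.

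The log2 values that changed sign did not pass under any setting. With the constant they were -0.16 for summed Pdss2 in UUO, and in AC -0.24 for mmu_circ_0000164 and -0.37 for Rhot1. With no filter they were -0.017 for mmu_circ_0000164 and -0.035 for Rhot1 in AC, and with the block -0.093 for mmu_circ_0000164 in AC. With 1 library left out, summed Pdss2 ran from -0.17 to 0.21 in UUO. In AC mmu_circ_0000164 ran from -0.15 to 0.36, Rhot1 from -0.16 to 0.42 and Supv3l1 from -0.86 to 0.13. Between UUO and AC mmu_circ_0000163 ran from -0.41 to 0.66, Supv3l1 from -0.59 to 0.36 and Ttc19 from -0.21 to 2.80. The cause was not tested. Ccdc109a fell below the filter without UUO replicate 2 or 3 and with 2 groups only against control. Where 1 AC library was left out, the fit gave the remaining one the spread of UUO and control. Depth limits all members: 3 counts were worth 56.6 to 87.5 CPM.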
